A study of Mus musculus with 49 samples.

Results

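The genes described here encode the pores and accessory subunits of potassium channels, voltage-gated calcium channels and voltage-gated sodium channels. They were taken as all symbols of the read count table that begin with Kcn, Cacna, Cacnb, Cacng or Scn followed by a digit and that had at least 10 counts in at least 2 libraries. Of 24062 genes in the table, 137 symbols match those beginnings and 72 met the minimum. Kcnh7 stood just inside it, with 10 counts in its second-highest library, and Kcnh1, Kcnmb4 and Kcns2 just outside, with 9 counts each. The 72 genes comprise 8 calcium channel pores, 8 calcium channel accessory subunits, 4 sodium channel pores, 3 sodium channel accessory subunits, 20 voltage-gated potassium channel subunits, 5 potassium channels of the calcium- or sodium-activated (Kcnma, Kcnn, Kcnt and Kcnu) families, 8 inward rectifiers, 8 K2P (Kcnk) leak channels, 6 potassium channel accessory subunits, the regulator Kcnrg, and Kcnq1ot1, a long noncoding RNA transcribed within Kcnq1. The symbol pattern also takes in Kcne3, Kcnip, Kcnab and Kcnmb subunits, which form no pore.

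Voltage-gated calcium and sodium channels open when the membrane depolarises, and potassium channels bring the potential back. In hormone-secreting enteroendocrine cells, as in neurons and pancreatic islet cells, action potentials and calcium entry through these pores trigger release of stored granules. In crypt epithelium the better-known roles are different: basolateral potassium channels such as the Kcnq1 and Kcne3 complex and Kcnn4 recycle potassium and sustain the driving force for chloride and fluid secretion.

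The series profiled RNA from crypts of the proximal small intestine of adult mice on a mixed B6;129 background, in 25 libraries and 12 groups of the 49 deposited samples; the other 24 are not RNA libraries and were not analysed here. Bmi1-GFP cells (3 libraries) were GFP-positive cells sorted from Bmi-1GFP/+ mice, and 1 further library came from such mice 36 h after 10 Gy of whole-body radiation. Lgr5-GFP-Cre stem cells (3) were the GFP-high fraction of Lgr5EGFP-IRES-CRE-ERT2 mice, and Lgr5-GFP-DTR stem cells (2) the GFP-positive fraction of mice carrying Lgr5EGFP-DTR, a diphtheria toxin receptor knock-in. Enteroendocrine cells (2) and Paneth cells (2) were sorted from wild-type mice as CD24-high cells that were negative or high, respectively, for the lectin UEA. The CD274+CD69+ cells (2) were sorted with antibodies to both surface proteins from wild-type mice, and a second such group (2) came from mice given diphtheria toxin at 50 µg/kg in 4 injections on alternate days; those mice are also labelled wild type. Goblet cells (2) came from wild-type mice given the Notch inhibitor DBZ at 48 mg/kg at 0 and 12 h and killed at 115 h; their protocol describes the CD69 and CD274 sort. Enterocyte progenitors (2) were whole crypts of Atoh1 F/F; Villin-CRE mice, in which tamoxifen (1 mg on 5 days) removes the transcription factor needed for secretory cells throughout the epithelium, taken after 3 weeks. Secretory progenitors were whole crypts too, either of Atoh1 F/F mice without Cre given DBZ in the same doses and killed at 38 h (2), or of Rbpj F/F; Villin-CRE mice given 2 mg tamoxifen in 2 doses a day for 2 days and killed on day 3 (2). The labels call the replicates biological but do not say that each came from its own mouse, so p-values measure the spread between these libraries.

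Libraries held 11179085 to 27371108 counts, and values below are counts per 1000000 after edgeR's TMM scaling (CPM); they are not corrected for transcript length and are compared only within a gene. Rbpj stood at 21 and 28.4 CPM in the crypts labelled Rbpj F/F; Villin-CRE (the Rbpj crypts below). The Atoh1-deleted crypts were higher, at 42.8 and 43.6 CPM, as were the DBZ-treated crypts, at 39.5 and 32.8 CPM. The stem cell sorts were not, at 18.4, 24.6 and 22.4 CPM in Lgr5-GFP-Cre, which overlaps the Rbpj crypts, and 14.6 and 11.2 CPM in Lgr5-GFP-DTR. In the Atoh1-deleted crypts Atoh1 stood at 1.49 and 1.74 CPM against 58.9 and 124 CPM in the DBZ crypts. Summed over 15 hormone and enteroendocrine genes, the level was 14760 to 27600 CPM in the enteroendocrine libraries, 8862 to 16850 in Bmi1-GFP, 3391 to 3682 in goblet, 318.6 to 362.5 in Lgr5-GFP-Cre and 29.3 to 47.7 in the enterocyte progenitors. Genes of other cells were present in the sorts: 6 Paneth cell genes summed to 156900 to 215400 CPM in Lgr5-GFP-DTR, 204100 to 332200 in Paneth and 51310 to 57830 in enteroendocrine libraries, against 40530 to 47720 in Lgr5-GFP-Cre. The enteroendocrine libraries also held 8 goblet cell genes at 14330 to 27290 CPM, against 2065 to 4058 in Lgr5-GFP-Cre. Their 12 myeloid and mast cell genes summed to 342.7 to 610.7 CPM, against 28 to 55 in Lgr5-GFP-Cre. Lgr5 itself was at 117 and 76.2 CPM in the Paneth libraries and 62.7, 94.9 and 77.7 in Lgr5-GFP-Cre. In sorted or whole-crypt RNA, a larger number of cells of a type and more RNA per cell cannot be told apart.

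**Figure D1:**
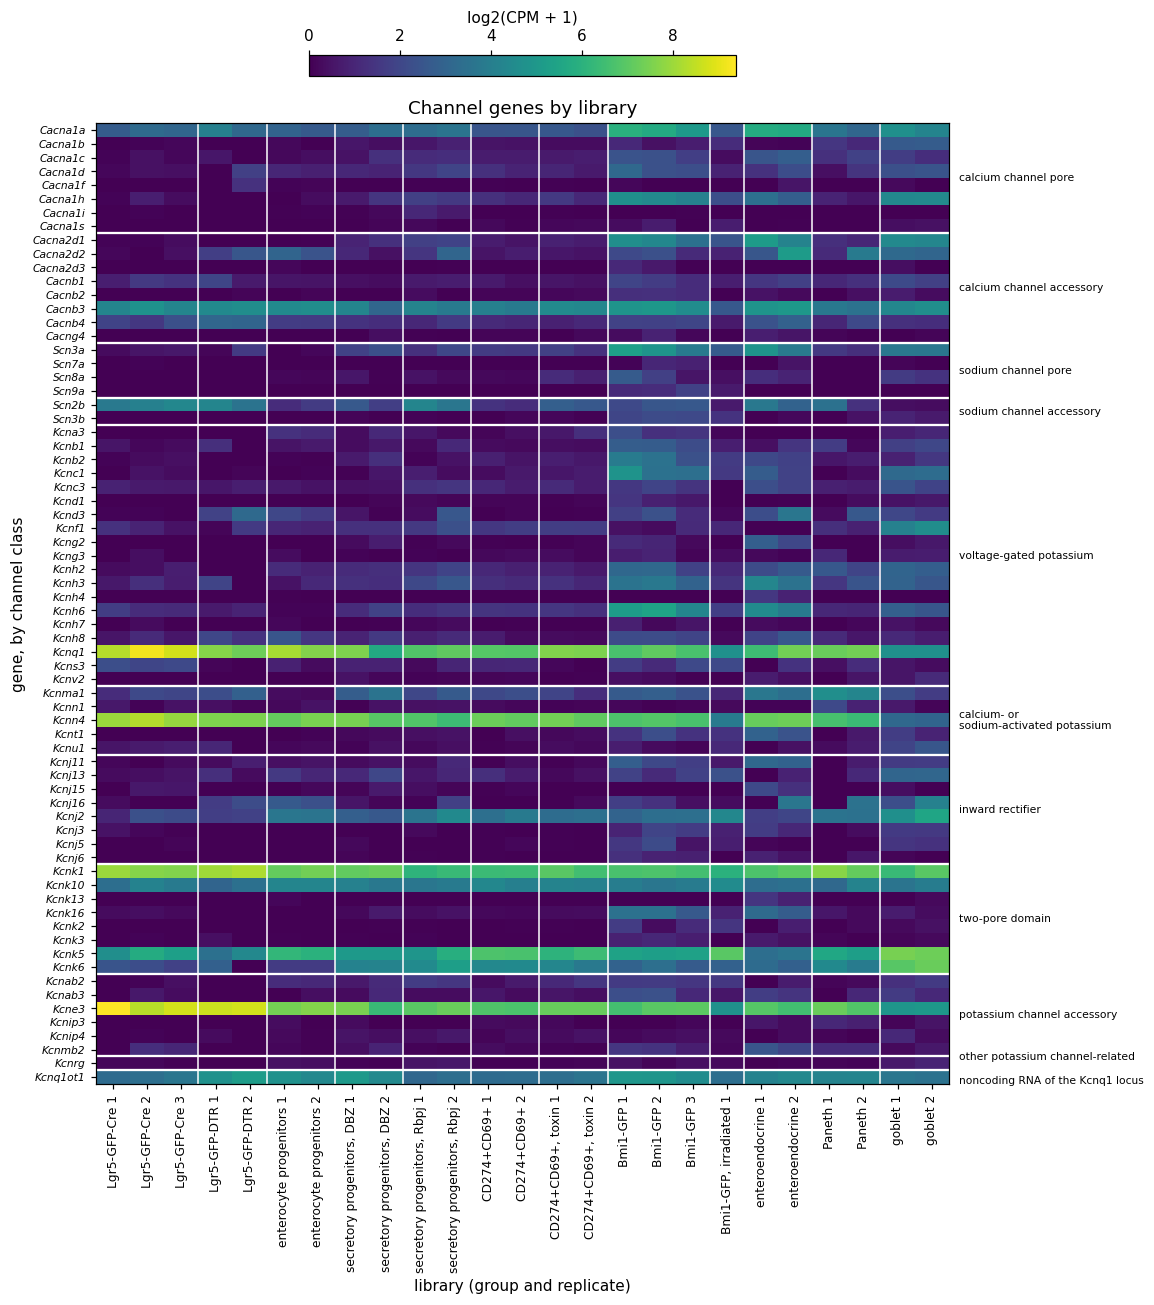
Heatmap of 70 of the 72 channel genes (rows, by class) in the 25 libraries (columns, by group and replicate), coloured by log2(CPM + 1). Bright rows across the map are Kcnq1, Kcnn4, Kcnk1 and Kcne3, while Cacna1a, Cacna2d1, Scn3a and Kcnh6 stand out in the Bmi1-GFP and enteroendocrine columns. Cacna2d1, Scn3a and, less strongly, Cacna1a are also high in the goblet columns.

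The promoters of Kcnk16 and Kcnh6 are shown because both genes stand high in the enteroendocrine and Bmi1-GFP libraries described next and each holds a match to a motif searched; they were picked after the search. Capitals mark matches to motifs searched on both strands in the 250 bases before each annotated start (RefSeq, GRCm38.p6): the E-box CAGATG, read by basic helix-loop-helix factors of the class that specifies endocrine cells, and TTCAGCACC and GGACAG, the left and right parts of the element bound by the neuronal-gene repressor REST. Only bases outside the annotated gene are printed, 5′ to 3′ on the gene's strand.
Kcnk16, chr14:20269270-20269519, minus strand: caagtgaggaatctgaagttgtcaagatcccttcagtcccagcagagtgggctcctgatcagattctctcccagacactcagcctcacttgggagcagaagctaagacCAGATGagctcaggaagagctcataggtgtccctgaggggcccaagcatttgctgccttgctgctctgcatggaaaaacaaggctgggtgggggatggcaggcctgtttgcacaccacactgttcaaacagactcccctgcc
Kcnh6, chr11:106007898-106008043, plus strand: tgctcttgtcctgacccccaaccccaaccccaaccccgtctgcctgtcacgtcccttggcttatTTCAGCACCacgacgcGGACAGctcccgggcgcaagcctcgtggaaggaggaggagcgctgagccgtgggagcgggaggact
CAGATG occurs in 14.4% of the 32851 RefSeq promoter windows, TTCAGCACC in 0.301% and GGACAG in 18.7%. In Kcnh6 the last 2 of these lie on the same strand with 7 bases between them, and Kcnh6 was the only 1 of the 51 channel genes with a window to hold TTCAGCACC. The parts were searched separately, with no rule for the spacing between them or for the bases that follow. The pair is therefore not shown to be a whole REST element. GGACAG was added to the search after TTCAGCACC had been seen in this gene. Of the 17 windowed genes that were higher in both enteroendocrine and Bmi1-GFP cells than in Lgr5-GFP-Cre, 5 held CAGATG and 5 GGACAG, which was also in 2 of the 3 windowed genes that were lower in both (Kcne3 and Kcnk1). Over all 51 windowed channel genes, 10 held CAGATG and 15 held GGACAG. These counts are of genes with a match in any of their windows, while the percentages are of single windows. Counted by gene, 4409 of 27025 genes held CAGATG and 5668 held GGACAG. Other motifs were searched too. A second E-box, CAGCTG, was in 5 of the 17 and in 15 of the 51 (13% of all windows). The TCF/LEF motif CTTTGAT was in 1 (3.21%), and the GATA motif AGATAA (9.99%) and the CDX motif TTTATG (10.8%) in none. These are matches of letters and no measure of binding.

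The first comparison asks which channel genes set enteroendocrine cells and Bmi1-GFP cells apart from Lgr5-GFP-Cre stem cells. In enteroendocrine cells 35 channel genes were higher and 7 lower, 60.9% of the 69 that could be tested, where 46% of all 14837 genes were called at an edgeR adjusted p below 0.05 (24.1% higher and 21.9% lower). In Bmi1-GFP cells 43 were higher and 7 lower, 72.5% of the 69, against 49.8% of all genes (28.1% higher and 21.7% lower). The calcium channel pores Cacna1a and Cacna1h, the sodium channel pore Scn3a and the voltage-gated potassium channels Kcnh6, Kcnb2 and Kcnc1 rose in both, while Kcne3, Kcnq1, Kcnn4 and Kcnk1 fell in both. The median log2 fold change over the 69 genes was 2.45 in enteroendocrine cells and 3.49 in Bmi1-GFP, or 2.34 and 3.24 with genes at 0 in a group set to a floor of 3 counts; over all genes it was 0 and 0.11. Genes near 0 in stem cells entered the test only because they reach the minimum elsewhere, so these counts and medians describe the list and test nothing about it. Both comparisons use the same 3 stem cell libraries. By call, 31 genes were higher in both and 5 lower in both. TrypLE was used to separate Bmi1-GFP and both Lgr5 populations and Dispase for the enteroendocrine, Paneth, CD274+CD69+ and goblet sorts, so that enzyme and cell type cannot be told apart between enteroendocrine and stem cells. Genes of a list for enteric neurons were also higher in sum in both populations than in Lgr5-GFP-Cre. The 10 summed to 44 to 68.1 CPM in enteroendocrine libraries and 18.8 to 51.7 in Bmi1-GFP, against 1.17 to 2.28 in Lgr5-GFP-Cre. Of the 10, 4 were at 1 CPM or more in each enteroendocrine library and 2 to 4 in Bmi1-GFP. Most of these sums came from Ret and Chat. Ret was at 28.3 and 15.2 CPM in enteroendocrine and 29.1, 22.8 and 12.5 in Bmi1-GFP. Chat was at 1.76 and 45.3 CPM in enteroendocrine and 17.8, 11.6 and 5.32 in Bmi1-GFP. Of the 10, 3 to 5 had no count in the enteroendocrine libraries and 2 to 5 in Bmi1-GFP. The 6 enteric glial genes summed to 1.78 to 2.19 CPM in enteroendocrine libraries, 1.34 to 2.67 in Bmi1-GFP and 2.21 to 3.00 in Lgr5-GFP-Cre. Of the 6, 2 to 3 had no count in the enteroendocrine libraries, 1 to 2 in Bmi1-GFP and 2 to 3 in Lgr5-GFP-Cre. In Lgr5-GFP-DTR the 10 neuron genes summed to 13.1 to 25 CPM, with 6 to 9 of them at 0. A list of 14 tuft cell genes summed to 1122 to 5409 CPM in enteroendocrine libraries, 269.8 to 689.7 in Bmi1-GFP and 26.31 to 36.55 in Lgr5-GFP-Cre. The same list summed to 1450 to 2113 CPM in Lgr5-GFP-DTR, so the 2 stem cell lines differed in it, and to 869.7 to 1657 in the enterocyte progenitors. The part of nerve, glial and tuft cells was not tested.

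Among calcium channel pores, 4 of 6 tested rose in enteroendocrine cells and 5 of 6 in Bmi1-GFP, where 24.1% and 28.1% of all genes rose. Cacna1a, the P/Q-type pore of fast transmitter release, stood at 54.1 and 51.4 CPM in the enteroendocrine libraries, 60.7, 52.8 and 32.1 in Bmi1-GFP and 5.6, 8.45 and 7.56 in Lgr5-GFP-Cre. The groups did not overlap with the stem cells (log2 fold change 2.87 ± 0.32 (SE), edgeR adjusted p = 4.26e-06, and 2.75 ± 0.31 (SE), edgeR adjusted p = 3.47e-06). Cacna1h, a low-voltage-activated T-type pore, was at 9.73 and 5.99 CPM in enteroendocrine cells and 24.4, 20.5 and 16.3 in Bmi1-GFP, against 0.0651, 0.715 and 0.253 in stem cells. Every library of both groups was at least 5 CPM above the highest stem cell library (log2 fold change 4.51 ± 0.68 (SE), edgeR adjusted p = 5.96e-05, and 5.89 ± 0.67 (SE), edgeR adjusted p = 5.52e-06). The L-type pores Cacna1c and Cacna1d, which carry the sustained calcium current of endocrine cells, were lower in level but moved alike. Cacna1c was at 4.49 and 5.99 CPM in enteroendocrine cells and 0.0651, 0.325 and 0.127 in stem cells (log2 fold change 4.91 ± 0.77 (SE), edgeR adjusted p = 7.06e-05). Cacna1d was at 7.96, 4.03 and 3.78 CPM in Bmi1-GFP and 0.13, 0.325 and 0.296 in stem cells (log2 fold change 4.34 ± 0.86 (SE), edgeR adjusted p = 0.000529). Cacna1h, Cacna1c and Cacna1d overlap other genes of the table, and how the authors assigned such reads is not given in the sources used here.

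Of the accessory subunits, Cacna2d1, which carries calcium channels to the membrane and is the target of the drug gabapentin, was higher in both populations. Its level was 34.6 and 17.3 CPM in enteroendocrine cells, 23.6, 19.1 and 10 in Bmi1-GFP and 0.0651, 0.065 and 0.253 in stem cells. No library of the first 2 groups came near the stem cell range (log2 fold change 7.45 ± 0.56 (SE), edgeR adjusted p = 1.59e-07, and 6.89 ± 0.54 (SE), edgeR adjusted p = 2.88e-07). Cacnb3, a cytoplasmic beta subunit, was by contrast present everywhere, at 28.2 and 30.8 CPM in enteroendocrine cells and 18.3, 26.2 and 18.4 in stem cells, and did not pass the test (log2 fold change 0.49 ± 0.27 (SE), edgeR adjusted p = 0.146).

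Sodium channels were represented mainly by Scn3a, a pore found in developing neurons and in islet cells. It was at 27 and 12.9 CPM in enteroendocrine cells, 38.3, 27.8 and 13.5 in Bmi1-GFP and 0.195, 0.455 and 0.507 in stem cells (log2 fold change 5.63 ± 0.71 (SE), edgeR adjusted p = 1.1e-05, and 6.04 ± 0.69 (SE), edgeR adjusted p = 4.52e-06). All 5 enteroendocrine and Bmi1-GFP libraries lay above all stem cell libraries, with a spread of more than 2-fold inside each group. Scn8a, picked out after its values were seen, rose from no count in any stem cell library to 1.34 and 0.892 CPM in enteroendocrine and 5.4, 2.47 and 0.439 CPM in Bmi1-GFP cells. The beta subunit Scn2b was instead lower in Bmi1-GFP cells. It stood at 13, 16 and 19.5 CPM in stem cells and 3.2, 4.63 and 4.92 in Bmi1-GFP, without overlap (log2 fold change -1.93 ± 0.49 (SE), edgeR adjusted p = 0.00338); in enteroendocrine cells, at 12.4 and 6.8 CPM, it did not pass (log2 fold change -0.76 ± 0.53 (SE), edgeR adjusted p = 0.255). Scn2b overlaps the gene model Gm10684.

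Voltage-gated potassium channels formed the largest class, with 12 of 19 tested genes higher and 2 lower in enteroendocrine cells, and 14 higher and 1 lower in Bmi1-GFP. These are 73.7% and 78.9% called, against 46% and 49.8% of all genes. Kcnh6, an ERG-type channel whose closest relatives repolarise the heart, was at 21.4 and 13.5 CPM in enteroendocrine cells, 35.7, 42.8 and 18.5 in Bmi1-GFP and 2.28, 1.3 and 1.18 in stem cells. The lowest Bmi1-GFP library was far above the highest stem cell library (log2 fold change 3.46 ± 0.40 (SE), edgeR adjusted p = 4.91e-06, and 4.36 ± 0.39 (SE), edgeR adjusted p = 6.87e-07). Its relatives Kcnh2 and Kcnh3 were also higher. Kcnh2 was at 7.84, 8.05 and 2.5 CPM in Bmi1-GFP against 0.195, 0.26 and 0.718 in stem cells (log2 fold change 3.88 ± 0.56 (SE), edgeR adjusted p = 4.17e-05). Kcnh3 was at 10.9, 12.4 and 6.68 CPM against 0.521, 1.43 and 0.676 (log2 fold change 3.52 ± 0.72 (SE), edgeR adjusted p = 0.000652). Kcnb2 and Kcnc1 are delayed rectifiers, the second a fast Kv3 channel of rapidly firing neurons. Kcnb2 was at 14.1, 10.5 and 4.00 CPM in Bmi1-GFP, 3.1 and 2.49 in enteroendocrine cells and 0.0651, 0.195 and 0.296 in stem cells (log2 fold change 5.57 ± 0.72 (SE), edgeR adjusted p = 1.59e-05 for Bmi1-GFP). Kcnc1 was at 27.2, 10.2 and 9.84 CPM in Bmi1-GFP, 5.56 and 2.64 in enteroendocrine cells and 0, 0.39 and 0.253 in stem cells (log2 fold change 6.13 ± 0.89 (SE), edgeR adjusted p = 3.6e-05 for Bmi1-GFP). In both genes the first Bmi1-GFP library was the highest of the series.

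**Figure D2:**
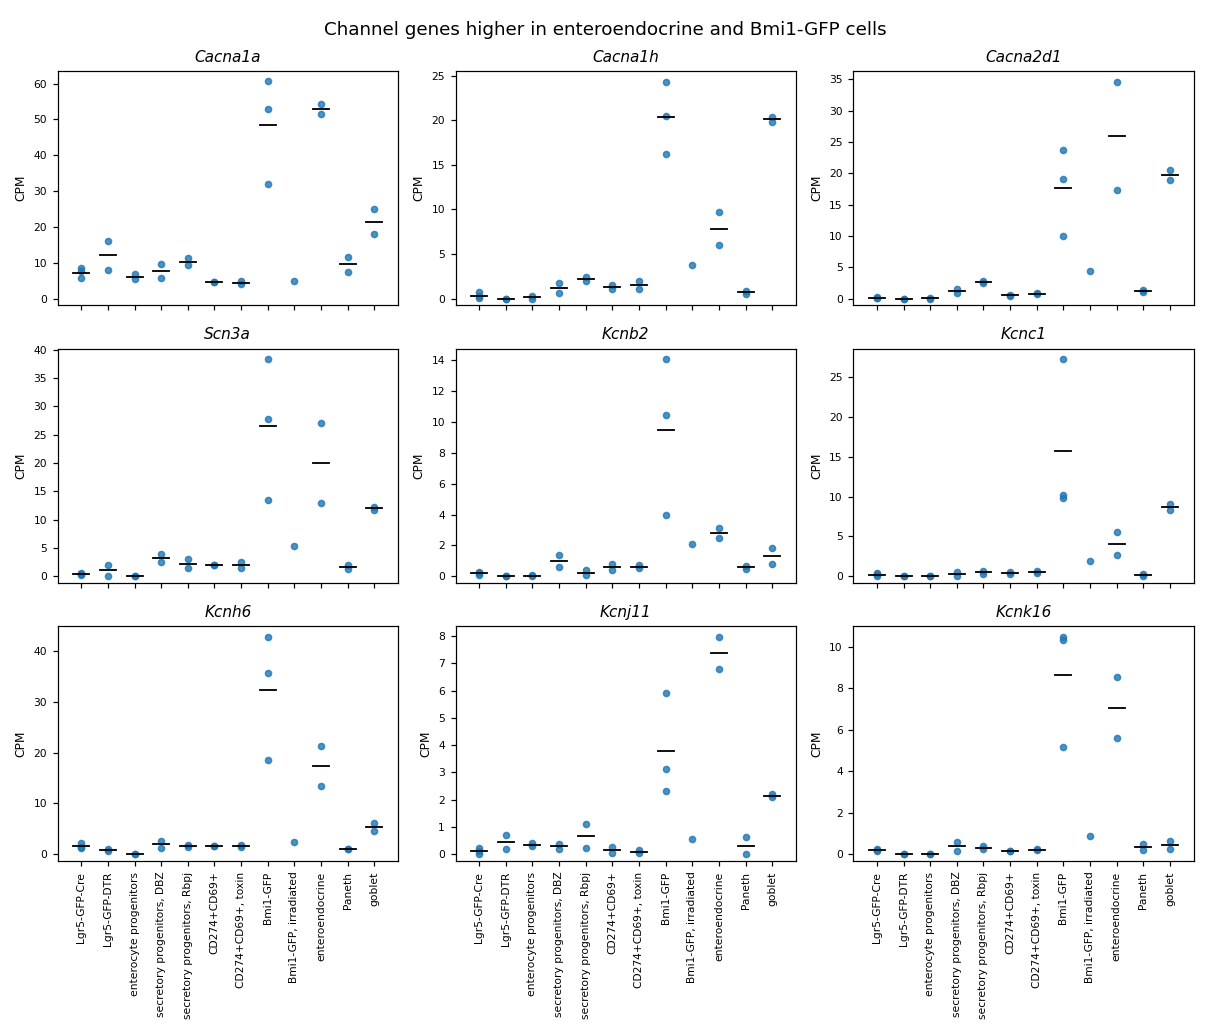
CPM of 9 channel genes in each library (points) of the 12 groups, with a bar at the mean of groups with more than 1 library. Enteroendocrine and Bmi1-GFP points stand above the stem cell points in every panel, Cacna1h, Cacna2d1, Scn3a and Kcnc1 are also high in the goblet libraries, and the single irradiated Bmi1-GFP library lies below the untreated ones.

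Among leak channels, Kcnk16, a K2P channel best known from pancreatic islets, was at 8.55 and 5.58 CPM in enteroendocrine cells, 10.5, 10.3 and 5.14 in Bmi1-GFP and 0.195, 0.26 and 0.169 in stem cells. It was below 1 CPM in every other library of the series (log2 fold change 5.06 ± 0.63 (SE), edgeR adjusted p = 1.6e-05, and 5.35 ± 0.61 (SE), edgeR adjusted p = 7.39e-06). The inward rectifier Kcnj11 is the pore of the ATP-sensitive channel that couples glucose metabolism to secretion. Its level was 7.96 and 6.8 CPM in enteroendocrine cells, 5.93, 3.12 and 2.33 in Bmi1-GFP and 0.13, 0 and 0.211 in stem cells (log2 fold change 5.84 ± 0.97 (SE), edgeR adjusted p = 0.000121). Abcc8, the sulfonylurea receptor that completes this channel, rose beside it, from 2.08, 1.63 and 0.76 CPM in stem cells to 32.8 and 27 in enteroendocrine cells (log2 fold change 4.35 ± 0.69 (SE), edgeR adjusted p = 8.51e-05) and 35.7, 39 and 24.1 in Bmi1-GFP (log2 fold change 4.49 ± 0.67 (SE), edgeR adjusted p = 4.5e-05). Kcnt1, a sodium-activated potassium channel, had no count in stem cells and stood at 6.79 and 4.31 CPM in enteroendocrine cells (edgeR adjusted p = 0.000114).

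Kcne3, Kcnq1, Kcnn4 and Kcnk1 were among the channel genes lower in both populations. Kcne3, the beta subunit that holds Kcnq1 open at rest, was at 667, 329 and 434 CPM in Lgr5-GFP-Cre stem cells, 120.0 and 92.8 in enteroendocrine cells and 95.2, 127 and 129.6 in Bmi1-GFP. The lowest stem cell library was more than 2-fold above the highest of the others (log2 fold change -2.16 ± 0.31 (SE), edgeR adjusted p = 3.11e-05, and -2.02 ± 0.26 (SE), edgeR adjusted p = 1.29e-05). Kcnq1 itself was at 323, 592 and 426 CPM in stem cells, 87 and 168 in enteroendocrine cells and 101, 135 and 102 in Bmi1-GFP, again without overlap with stem cells (log2 fold change -1.81 ± 0.40 (SE), edgeR adjusted p = 0.00145, and -1.99 ± 0.35 (SE), edgeR adjusted p = 0.00019). Kcnq1ot1, transcribed from inside Kcnq1, was higher in Bmi1-GFP cells, where Kcnq1 was lower: 8.79, 9.62 and 12 CPM in stem cells and 29.3, 28.9 and 22.8 in Bmi1-GFP (log2 fold change 1.41 ± 0.21 (SE), edgeR adjusted p = 4.46e-05); without stated strand use, reads of this pair cannot be told apart. Kcnn4, the calcium-activated channel of crypt secretion, was at 248, 313 and 235 CPM in stem cells against 147 and 158 in enteroendocrine cells (log2 fold change -0.80 ± 0.19 (SE), edgeR adjusted p = 0.00229) and 107, 116 and 102 in Bmi1-GFP (log2 fold change -1.29 ± 0.17 (SE), edgeR adjusted p = 1.33e-05). The leak channel Kcnk1 was at 251, 203 and 196 CPM against 108 and 128 (log2 fold change -0.88 ± 0.21 (SE), edgeR adjusted p = 0.00231) and 102, 108 and 95.4 (log2 fold change -1.09 ± 0.18 (SE), edgeR adjusted p = 0.000128). All 4 stayed above 80 CPM in every enteroendocrine and Bmi1-GFP library.

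**Figure D3:**
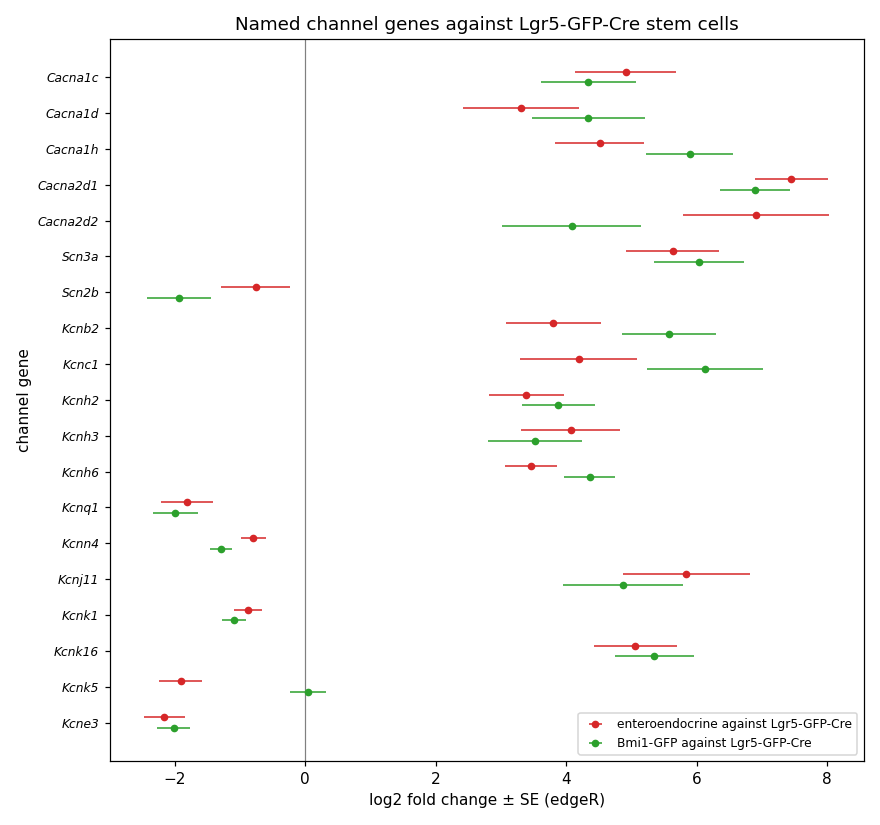
Log2 fold changes against Lgr5-GFP-Cre stem cells with their standard errors (edgeR) for 19 channel genes named for either comparison and with more than 3 counts in the stem cell libraries. Enteroendocrine and Bmi1-GFP values lie on the same side of 0 except for Kcnk5, which is at -1.91 and 0.04, and Scn2b's enteroendocrine value is within 2 standard errors of 0.

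Genes that work with these channels were counted in a list of 61, of which 49 were tested: 24 were higher and 5 lower in enteroendocrine cells, and 28 higher and 3 lower in Bmi1-GFP. These are 59.2% and 63.3% called against 46% and 49.8% of all genes. The partner genes named here, and Abcc8 above, were picked out after their values were seen. Unc80, a subunit of the NALCN sodium leak channel, had no count in stem cells and was at 5.05 ± 2.31 CPM (mean ± SD, n = 2) in enteroendocrine cells. Trpa1, the irritant receptor of serotonin-releasing cells, rose from 0.326, 1.1 and 0.802 to 45.6 and 21.5 CPM (log2 fold change 5.47 ± 0.79 (SE), edgeR adjusted p = 3.49e-05). On the secretory side, the basolateral chloride loader Slc12a2 fell with Kcnq1 and Kcne3, from 693, 867 and 819.7 CPM in stem cells to 320.1 and 345 in enteroendocrine cells (log2 fold change -1.25 ± 0.24 (SE), edgeR adjusted p = 0.000466).

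The second stem cell line gave a check on the choice of control. Against Lgr5-GFP-DTR, 23 of 69 channel genes were higher and 5 lower in enteroendocrine cells, 40.6% against 33.9% of all genes (19.2% higher and 14.7% lower). Of the genes higher against Lgr5-GFP-Cre, 21 were also higher here, and 4 of the lower ones were also lower; 1 gene, Kcnq1ot1, changed from higher to lower, a call lost without either enteroendocrine library (edgeR adjusted p = 0.167 and 0.0568). Cacna2d1, Cacna1h, Kcnk16 and Kcnt1 had no count in either Lgr5-GFP-DTR library, which puts Cacna2d1 at least 173-fold and Kcnk16 at least 47.2-fold higher in enteroendocrine cells at the floor of 3 counts. Kcnq1 differed between the stem cell lines, at 205 and 159.5 CPM in Lgr5-GFP-DTR against 323, 592 and 426 in Lgr5-GFP-Cre (log2 fold change -1.29 ± 0.39 (SE), edgeR adjusted p = 0.027), and Kcnk5 was lower in Lgr5-GFP-DTR (log2 fold change -1.39 ± 0.33 (SE), edgeR adjusted p = 0.0071). Kcnq1's call is lost without either Lgr5-GFP-DTR library (edgeR adjusted p = 0.0537 and 0.163), and that of Kcnk5 without the first (0.0765). Between the 2 stem cell lines 4 of 69 channel genes were higher and 5 lower in Lgr5-GFP-DTR, 13% against 20.8% of all genes (8.83% higher and 12% lower).

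Bmi1-GFP and enteroendocrine cells were compared directly, and most channel genes did not pass the test between them: 9 were higher and 5 lower in Bmi1-GFP, 20.3% of 69 against 24.9% of all genes (14.3% higher and 10.5% lower). Kcnk5, an acid-sensitive leak channel of fluid-transporting epithelia, was at 41.7, 37.2 and 40.7 CPM in Bmi1-GFP and 9.36 and 11.2 in enteroendocrine cells. Lgr5-GFP-Cre stem cells held 24, 53.8 and 38.5 CPM and Lgr5-GFP-DTR 9.98 and 19.6. Enteroendocrine libraries lay below Bmi1-GFP without overlap (log2 fold change 1.95 ± 0.33 (SE), edgeR adjusted p = 0.000875). They also lay below Lgr5-GFP-Cre but overlapped Lgr5-GFP-DTR. Kcnj2, the classical strong inward rectifier, was at 6.86, 9.56 and 9.62 CPM in Bmi1-GFP against 2.35 and 2.94 in enteroendocrine cells (log2 fold change 1.71 ± 0.43 (SE), edgeR adjusted p = 0.00819; 0.0916 without the first enteroendocrine library). Scn9a and Scn3b, a nociceptor sodium pore and a beta subunit, and Kcna3, the potassium channel of T lymphocytes, lay outside the naming rule and were picked out after their values were seen. Scn9a had counts only in Bmi1-GFP cells (1.16, 1.31 and 2.55 CPM) and the irradiated Bmi1-GFP library (0.617 CPM), and 0 in all 21 other libraries. Scn3b was at 2.85, 3.42 and 3.25 CPM in Bmi1-GFP and 0 and 0.149 in enteroendocrine cells. Kcna3 was at 3.72, 1.46 and 1.63 CPM and had no count in enteroendocrine cells; 14 lymphocyte genes summed to 1088 to 2568 CPM in Bmi1-GFP and 165.4 to 223.4 in enteroendocrine cells, and their part in Kcna3 was not tested. With the first enteroendocrine library left out, 4 of the 14 calls remain.

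Paneth and enteroendocrine cells shared the Dispase digestion and the CD24-high gate, and differed in the lectin. Of 69 channel genes, 20 were higher and 6 lower in enteroendocrine cells, 37.7% against 30.1% of all genes (14.2% higher and 15.9% lower). Cacna2d1 was at 1.39 and 1.000 CPM in Paneth cells (log2 fold change 4.46 ± 0.54 (SE), edgeR adjusted p = 7.9e-05), Kcnh6 at 1.09 and 0.937 (log2 fold change 4.11 ± 0.49 (SE), edgeR adjusted p = 7.09e-05), Cacna1a at 11.6 and 7.5 (log2 fold change 2.48 ± 0.37 (SE), edgeR adjusted p = 0.000276) and Kcnk16 at 0.494 and 0.187 (log2 fold change 4.43 ± 0.73 (SE), edgeR adjusted p = 0.000737), all below both enteroendocrine libraries given above. Kcnk5 went the other way, at 47.7 and 37.2 CPM in Paneth cells (log2 fold change -2.04 ± 0.36 (SE), edgeR adjusted p = 0.000826). Calls for Kcnt1 and Kcnh3 are lost without the first enteroendocrine library (edgeR adjusted p = 0.0709 and 0.22) or without the first Paneth library (0.0686 and 0.211). Without the first enteroendocrine library 13 of the 26 calls remain.

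Against Lgr5-GFP-Cre stem cells, Paneth cells had 18 channel genes higher and 5 lower, 33.3% against 40.4% of all genes (21.7% higher and 18.7% lower). Kcnma1, the large-conductance BK channel opened by calcium and depolarisation, had its highest level of the series in Paneth cells. It was at 23.7 and 18.2 CPM in Paneth cells, 12.2 and 9.4 in enteroendocrine cells and 1.3, 3.19 and 2.87 in stem cells, and both Paneth libraries were above every other library (log2 fold change 3.08 ± 0.43 (SE), edgeR adjusted p = 3.52e-05 for Paneth). Kcnk6 and Kcnj2 also rose. Kcnk6 was at 20.7 and 13.9 CPM in Paneth cells and 4.36, 3.64 and 2.49 in stem cells (log2 fold change 2.31 ± 0.59 (SE), edgeR adjusted p = 0.00479). Kcnj2 was at 10.9 and 10.2 against 0.977, 3.84 and 3.46 CPM (log2 fold change 1.92 ± 0.40 (SE), edgeR adjusted p = 0.00108). Kcne3 (log2 fold change -1.87 ± 0.30 (SE), edgeR adjusted p = 0.000127), Kcnn4 (log2 fold change -1.53 ± 0.20 (SE), edgeR adjusted p = 1.49e-05) and Kcnq1 (log2 fold change -1.51 ± 0.40 (SE), edgeR adjusted p = 0.00575) fell as they did in enteroendocrine cells. Without the second Paneth library 13 of the 69 genes were called, 12 of them among the 23.

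In goblet cells 39 channel genes were higher and 7 lower than in Lgr5-GFP-Cre stem cells, 66.7% of 69 against 69.4% of all genes (37.9% higher and 31.5% lower). The share called was no larger than the background, but the calls were mostly upward. The median log2 fold change was 3.02 over the 69 genes, or 2.87 at the floor of 3 counts, and 0.22 over all genes. As for the enteroendocrine and Bmi1-GFP comparisons, these values describe the list and test nothing about it. The goblet libraries also carried 8 enterocyte genes at a summed 106700 to 114100 CPM, against 2627 to 4254 in stem cells, and the enteroendocrine gene sum was 3391 to 3682 CPM against 318.6 to 362.5; the part of other cells in these values was not tested. The K2P channel Kcnk6 reached its highest level of the series here, 122 and 150.1 CPM against 4.36, 3.64 and 2.49 in stem cells (log2 fold change 5.29 ± 0.63 (SE), edgeR adjusted p = 5.41e-07). Kcnk5 stood at 176 and 156 CPM, also above every other library. Kcnf1, a silent subunit that forms channels only with partners, was at 16.6 and 23.1 CPM against 1.5, 0.91 and 0.38 (log2 fold change 4.44 ± 0.76 (SE), edgeR adjusted p = 5.35e-05), and no other library exceeded 4 CPM. Kcnj2 was at 24.3 and 44.3 CPM. Cacna1b, the N-type pore, was at 5.38 and 5.57 CPM against 0, 0.065 and 0.127 (log2 fold change 6.16 ± 0.90 (SE), edgeR adjusted p = 8.76e-06). Some genes high in enteroendocrine and Bmi1-GFP cells were high here too. Cacna2d1 stood at 20.5 and 18.9 CPM (edgeR adjusted p = 5.09e-09) and Cacna1h at 19.9 and 20.4 (edgeR adjusted p = 7.15e-07). Scn3a stood at 12.2 and 11.7 CPM (edgeR adjusted p = 5.55e-06) and Kcnc1 at 8.29 and 9.04 (edgeR adjusted p = 4.47e-05). Kcnk16 was low, at 0.638 and 0.253 CPM.

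Kcnn4, Kcnq1 and Kcne3 were lower in goblet cells too, while Kcnk5, also known from fluid-transporting epithelia, was higher as given above. Kcnn4 was at 8.11 and 7.18 CPM against 248, 313 and 235 in stem cells (log2 fold change -5.12 ± 0.24 (SE), edgeR adjusted p = 1.62e-11). Kcnq1 was at 24.9 and 25.4 CPM (log2 fold change -4.15 ± 0.46 (SE), edgeR adjusted p = 2.19e-07) and Kcne3 at 28.7 and 31.1 (log2 fold change -3.99 ± 0.34 (SE), edgeR adjusted p = 8.11e-09). Scn2b, at 0.273 and 0.253 CPM against 13, 16 and 19.5, fell as well (log2 fold change -5.91 ± 0.80 (SE), edgeR adjusted p = 2.78e-06). In all 4 genes the goblet libraries were below every other library of the series, apart from the irradiated Bmi1-GFP library, which lay lower for Kcne3 and between the goblet libraries for Kcnq1.

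**Figure D4:**
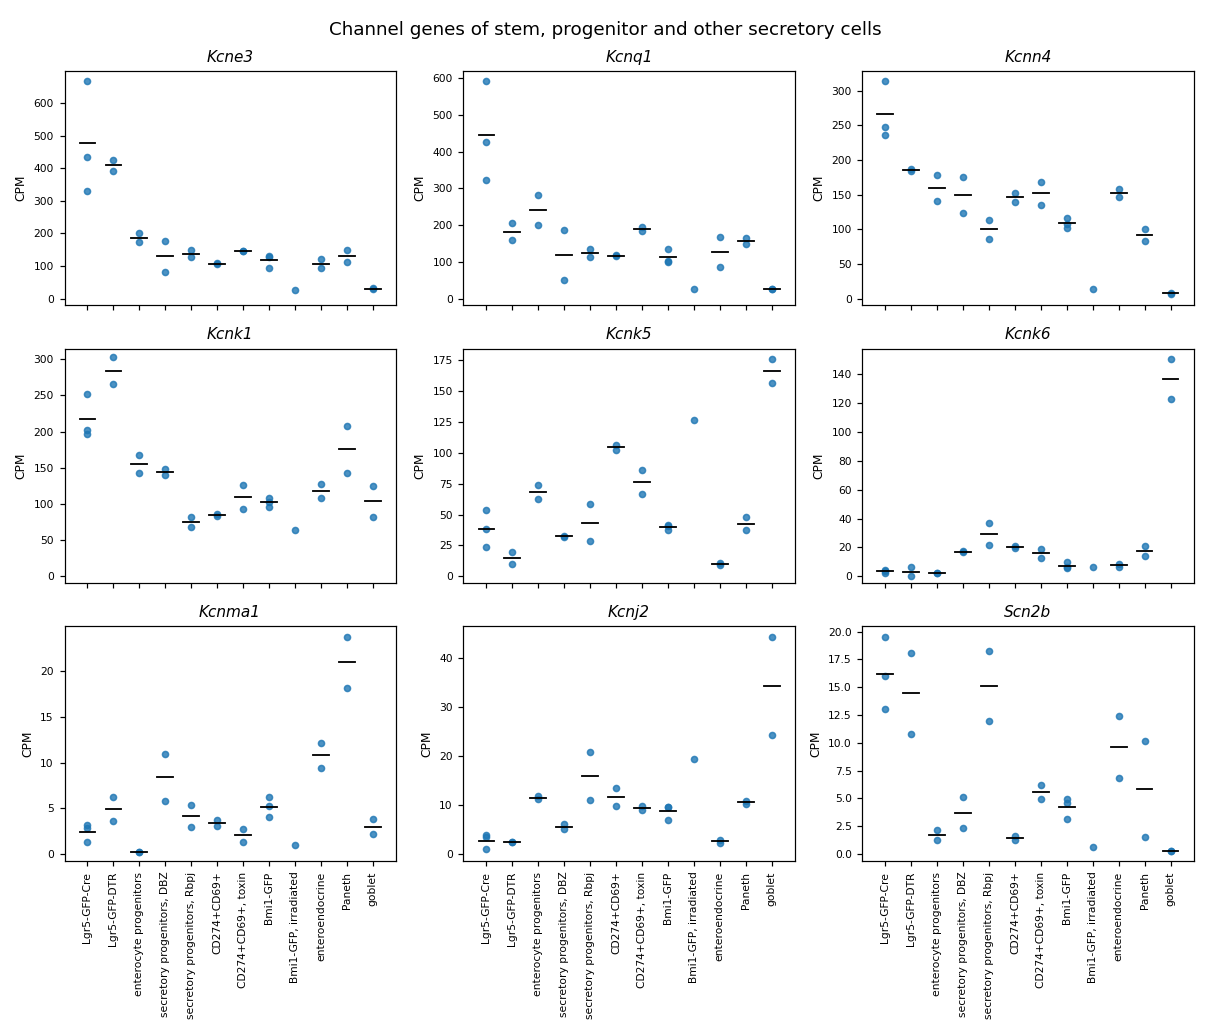
CPM of 9 channel genes in each library (points) of the 12 groups, with a bar at the mean of groups with more than 1 library. The means of Kcne3, Kcnq1 and Kcnn4 are highest in the Lgr5-GFP-Cre stem cells and lowest in goblet cells and the irradiated library, Kcnk6 peaks in goblet cells, and Kcnma1 peaks in Paneth cells.

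In CD274+CD69+ cells 7 channel genes were higher and 8 lower than in stem cells, 21.7% of 69 against 45% of all genes (23.6% higher and 21.4% lower). Kcnk5 was at 107 and 102 CPM against 24, 53.8 and 38.5 (log2 fold change 1.43 ± 0.30 (SE), edgeR adjusted p = 0.00092), Kcnk6 at 19.8 and 21 against 4.36, 3.64 and 2.49 (log2 fold change 2.56 ± 0.59 (SE), edgeR adjusted p = 0.00181) and Kcnj2 at 9.79 and 13.4 against 0.977, 3.84 and 3.46 (log2 fold change 2.06 ± 0.40 (SE), edgeR adjusted p = 0.000443). Scn2b was at 1.58 and 1.26 CPM, below every stem cell library (log2 fold change -3.51 ± 0.62 (SE), edgeR adjusted p = 0.000209). Cacna2d1, Scn3a and Cacna1h passed the test at low levels: Cacna2d1 stood at 0.642 and 0.406 CPM, Scn3a at 2.08 and 1.94 and Cacna1h at 1.48 and 1.04. The first of these libraries was made with the TruSeq kit and the second with SMART-Seq v4. Without the first, 11 genes were called, and without the second also 11. After diphtheria toxin no channel gene was called by edgeR or by DESeq2, 5 had an unadjusted edgeR p below 0.05, and 0.175% of all genes were called by edgeR (0.0741% higher and 0.101% lower).

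Crypts labelled secretory progenitors were compared with the Atoh1-deleted crypts. In the DBZ crypts 7 channel genes were higher and none lower than in enterocyte progenitors, 10.1% of 69 against 2.43% of all genes (1.97% higher and 0.465% lower). The 7 were Kcnma1, Kcnk6, Cacna2d1, Scn3a, Kcnh6, Kcnk16 and Kcnb2; the last 5 lie below 5 CPM and were named because the count is small. Kcnma1 was at 5.82 and 10.9 CPM against 0.229 and 0.183 (log2 fold change 5.31 ± 0.60 (SE), edgeR adjusted p = 1.93e-05), with the lowest DBZ library more than 20-fold above the progenitors. Kcnk6 was at 16.7 and 17.3 against 2.1 and 2.07 CPM (log2 fold change 3.02 ± 0.69 (SE), edgeR adjusted p = 0.0199). Scn3a was at 2.58 and 3.92 against 0 and 0.122, Kcnh6 at 1.27 and 2.63 against 0.0765 and 0.061, and Cacna2d1 at 0.915 and 1.46 against 0 and 0.0305. The enteroendocrine gene sum was 450.1 to 737.9 CPM in the DBZ crypts and 29.3 to 47.7 in the progenitors. The 6 Paneth cell genes summed to 4655 to 17980 CPM against 53 to 119.5, and 8 goblet cell genes to 7651 to 9027 against 36.6 to 75.6. The part of these cell types in the differences was not tested. Without an enterocyte progenitor library or a DBZ library, 3 to 10 genes were called, and Kcnk6 lost its call without the first or the second progenitor library or the second DBZ library (edgeR adjusted p = 0.223, 0.187 and 0.0807). Both the Atoh1 deletion and the inhibitor differ between these groups and cannot be told apart.

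The crypts labelled Rbpj F/F; Villin-CRE, Rbpj being the transcription factor of Notch signalling, were compared with the same progenitors: 15 channel genes were higher and 3 lower, 26.1% of 69 against 28.3% of all genes (14.9% higher and 13.4% lower). Kcnk6 was at 21.5 and 36.9 CPM (log2 fold change 3.80 ± 0.71 (SE), edgeR adjusted p = 0.000607) and Scn2b at 18.2 and 12 against 1.3 and 2.13 (log2 fold change 3.12 ± 0.63 (SE), edgeR adjusted p = 0.00113). Kcnma1, at 3.00 and 5.34 CPM, was again above the progenitors (log2 fold change 4.31 ± 0.59 (SE), edgeR adjusted p = 3.08e-05). Kcnk1 fell, from 143 and 167 to 67.5 and 81.5 CPM (log2 fold change -1.06 ± 0.22 (SE), edgeR adjusted p = 0.00168). Marker sums moved here too. Paneth cell genes were at 9618 to 9916 CPM against 53 to 119.5. Goblet cell genes were at 7322 to 8965 against 36.6 to 75.6, and enteroendocrine genes at 428.7 to 466.8 against 29.3 to 47.7. Their part was not tested. Both Rbpj libraries were made with the TruSeq kit and both progenitor libraries with SMART-Seq v4, so kit and genotype cannot be told apart, and both comparisons share the progenitor libraries. Without the second progenitor library 11 genes were called.

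The irradiated Bmi1-GFP library has no replicate and was set beside the 3 untreated ones without a test. Counting genes that lay more than 1 log2 unit outside the range of the 3, with at least 1 CPM on either side, it was below for 32 of 69 channel genes (46.4%) and above for 1, where 18.4% of all genes were below and 12.9% above. With no margin it was below all 3 for 45 (65.2%) and above all 3 for 8 (11.6%), against 43% and 39.3% of all genes. The median log2 difference from the untreated mean was -1.95 for the channel genes and -0.10 for all genes. Kcnh6 was at 2.34 CPM against 35.7, 42.8 and 18.5, Cacna1a at 4.81 against 60.7, 52.8 and 32.1, and Kcnn4 at 13.2 against 107, 116 and 102. The 1 gene above by that margin was Kcnk5, at 126 CPM against 41.7, 37.2 and 40.7. Kcnj2, at 19.3 CPM against 6.86, 9.56 and 9.62, lay at the margin and was not counted. The margin was taken on log2 CPM with a prior count of 2. The same library held enteroendocrine genes at 2788 CPM, against 8862 to 16850 in the untreated ones, and enterocyte genes at 103400 against 5131 to 13760; their part in these values was not tested.

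Replicates differed most for a small group of genes. Of 29 channel genes with at least 5 CPM in the higher enteroendocrine library, 7 were more than 2-fold apart between the 2, and 4 of those were higher in the second, Cacna2d2, Kcnd3 and Kcnj16 among them. Cacna2d2, an accessory calcium channel subunit, was at 4.65 and 34.8 CPM, and Kcnj16, an inward rectifier of transporting epithelia, at 0 and 11.8. The Paneth replicates split the same way, with Cacna2d2 at 1.19 and 13.1 CPM and Kcnj16 at 0 and 10.6. Tuft cell genes moved with them: 14 summed to 1122 and 5409 CPM in the enteroendocrine libraries and to 84.1 and 1466 in the Paneth libraries, with Dclk1 at 186 and 952 and at 19.6 and 361; their part was not tested. The Kcnj16 call against stem cells rests on the second library of each group, since without it the log2 fold change is -3.33 in enteroendocrine and -3.36 in Paneth cells. Cacna2d2 was lower in Bmi1-GFP than in enteroendocrine cells (log2 fold change -2.83 ± 0.87 (SE), edgeR adjusted p = 0.0244), and without the second enteroendocrine library the value is -0.74 (edgeR adjusted p = 0.62).

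**Figure D5:**
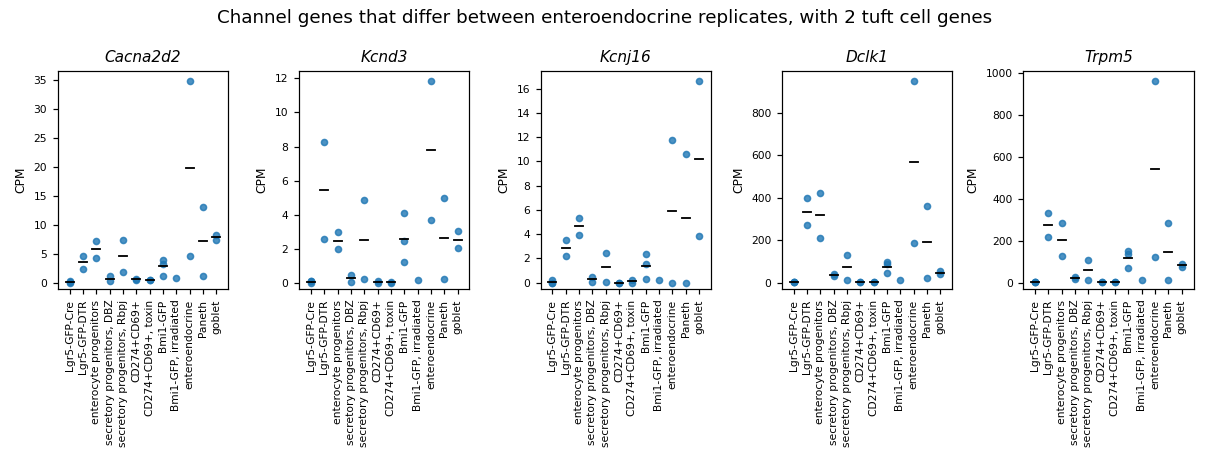
CPM of 3 channel genes and 2 tuft cell genes (Dclk1 and Trpm5) in each library (points) of the 12 groups, with a bar at the mean of groups with more than 1 library. In the enteroendocrine and Paneth columns 1 library is high and the other low in all 5 panels.

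Read by position in the series, the 72 genes reached their highest group level in Bmi1-GFP cells for 21, in enteroendocrine cells for 17, in goblet cells for 16, in each stem cell line for 5, and in Paneth cells and the irradiated library for 3 each, with 2 in the Rbpj crypts. The same count was not made over all genes, and genes can enter the list through the groups where they are high. These counts therefore describe the list only. The number of channel genes at 1 CPM or more was 44 to 52 in Bmi1-GFP libraries, 41 in each enteroendocrine and each goblet library, 30 in each Paneth library and 16 to 21 in Lgr5-GFP-Cre. The share of all genes at that level was 47.8% to 53.5%. That share is over all 24062 genes of the table, without the minimum count that the channel genes had to meet. The 2 are therefore not alike, and the minimum itself admits genes found in only a few groups. Total counts were 14423446 to 20271364 in the Bmi1-GFP libraries and 13623911 to 22055980 in Lgr5-GFP-Cre.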

How the data were processed

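RNA was measured in 25 libraries (75 bp single-end reads; SMART-Seq v4, or TruSeq for the Rbpj crypts and 1 CD274+CD69+ library, per the labels' protocols). The deposited table holds raw read counts per gene symbol; the submitters' processing notes name Bowtie2, TopHat2 2.0.6, DESeq2 and mm10, and neither the counting tool nor its strand setting or annotation is named there. Genes were filtered with filterByExpr (minimum count 10, minimum total 15), leaving 14837, of which 69 are channel genes. Counts were fitted with edgeR 4.0.16 (R 4.3.3; TMM scaling, quasi-likelihood test) in 1 model over 24 libraries and 11 replicated groups, with p-values adjusted by Benjamini-Hochberg over all genes and a threshold of 0.05, in 12 comparisons. The unreplicated irradiated library was left out of the fit. Common dispersion was 0.0719. Folds against a group at 0 use a floor of 3 counts over the group, which covers counting error only. Standard errors come from the quasi-likelihood fit and include the spread between libraries. Alternatives were DESeq2 1.42.0 (test and size factors), no filter, only the compared groups, a replicate block, and each replicate left out. The naming rule took the up to 10 called genes per direction with the largest change and a mean of at least 5 CPM in the higher group. It added the 10 genes of highest mean over the 12 groups and, in each class, the most expressed gene not called in a comparison. Other genes or comparisons, and the named partner genes, lay outside this rule and were chosen with their values known. All 72 symbols matched RefSeq (GRCm38.p6), and 51 had a promoter window. The genes, lists and comparisons were chosen with earlier results of these data known. Channel proteins were not used here, and the values of a few genes are not reported here.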

Additional observations from a re-analysis of the deposited data

How the results depend on the processing

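The channel genes called against Lgr5-GFP-Cre stayed within 1.5 times of the reported number in enteroendocrine, Bmi1-GFP, goblet and CD274+CD69+ cells under every alternative run. Fitting only the compared groups gave 13 calls for enteroendocrine against Paneth, 17 for enteroendocrine against Lgr5-GFP-DTR, 14 for Paneth against Lgr5-GFP-Cre, 3 for the 2 stem cell lines and 2 after diphtheria toxin; these fits rest on fewer libraries. DESeq2 called 11 genes in DBZ crypts against enterocyte progenitors. Leaving out 1 library gave 3 to 10 calls for the DBZ crypts, 11 to 13 for the Rbpj crypts, 4 to 14 for Bmi1-GFP against enteroendocrine, 13 to 22 for enteroendocrine against Paneth, 13 to 25 for Paneth against Lgr5-GFP-Cre and 4 to 9 for the stem cell lines. Of 104 named genes by comparison, 84 kept direction and call throughout; 2 reversed, both Kcnj16, which ranged over single left-out libraries from -3.33 (without the second enteroendocrine library) to 9.91 in enteroendocrine cells and from -3.36 (without the second Paneth library) to 9.78 in Paneth cells, the highest values being those without the first Lgr5-GFP-Cre library. The cause of the other shifts was not tested. Size factors moved the median of all genes by at most 0.08 (log2). The labels number replicates without naming a batch, so same-numbered samples share only a number; with a replicate block Bmi1-GFP against Lgr5-GFP-Cre kept 50 calls, enteroendocrine against Lgr5-GFP-Cre had 39, and Kcnj16 (both groups), Cacna2d2 (Bmi1-GFP against enteroendocrine) and Kcnh3 (enteroendocrine against Paneth) lost theirs. Correlations of same-numbered deviations were -0.07 to 0.05 for Bmi1-GFP and Lgr5-GFP-Cre, the only 3 pairs of numbers; in comparisons with 2 shared numbers they ran from -0.21 (Rbpj crypts against progenitors, 16 calls with the block) to 0.33 (enteroendocrine against Paneth, 24 calls with the block). With 2 libraries in most groups, small changes of low genes were not detectable.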
